A study of Mus musculus with 4 samples.

Results

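Adriamycin (doxorubicin) acts on topoisomerases, is exported by membrane pumps and leaves trapped protein on DNA that dedicated enzymes remove. The 9 genes described here are the topoisomerase genes Top1, Top2a and Top2b, the phosphodiesterase genes Tdp1 and Tdp2, and the efflux pump genes Abcb1a, Abcb1b, Abcc1 and Abcg2. They were listed by name, as drug targets, repair enzymes and exporters, with earlier results of these data known. All 9 were found among 22367 named genes, each as 1 RefSeq transcript model, and all 9 reached at least 1 FPKM (fragments per kilobase of transcript, scaled to the mapped fragments of the library) in at least 1 library.

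RNA was sequenced from embryonic stem (ES) cells of mice of C57BL/6X129Sv mix background, kept under 20 passages and cultured with serum and leukemia inhibitory factor. Cells with intact p53 (p53+/+) and cells labelled p53-/- were either left untreated or kept in 0.5 uM Adriamycin, with 8 h of exposure. Each of these 4 groups was a single library (n = 1), so no difference below has a replicate check, and no SD or p-value can be given. The sources used here do not say which exons the p53-/- cells lack or whether a genotype was 1 clone.

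Topoisomerases relieve the twisting and knotting of DNA by cutting and resealing strands. Top1 encodes the type I enzyme that nicks a strand ahead of polymerases. Top2a and Top2b encode the type II enzymes that pass a duplex through a double-strand break, Top2a in dividing cells during replication and mitosis, and Top2b in dividing and resting cells alike. Adriamycin blocks the resealing step of type II enzymes, which leaves enzyme bound to broken DNA. Tdp2 frees 5′ DNA ends of topoisomerase II peptides and Tdp1 frees 3′ ends of topoisomerase I peptides. P-glycoprotein, which mice make from Abcb1a and Abcb1b, exports doxorubicin. Abcc1 and Abcg2 encode the efflux pumps MRP1 and BCRP, and how far the mouse proteins export doxorubicin was not measured here.

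Coverage times transcript length, an estimate of aligned bases, summed to between 3.34 and 4.32 gigabases a library. Trp53 summed to 216 FPKM without and 165 FPKM with Adriamycin in p53+/+ cells and to 78.6 and 76.5 FPKM under the p53-/- label, a limited check of the labels since the deleted part is not stated. All 10 pluripotency markers examined stood at 1 FPKM or more in every library. The 10 p53 target genes listed as a reference, such as Cdkn1a and Mdm2, were all higher by at least 1 on the log2(FPKM + 1) scale after Adriamycin in p53+/+ cells, and 0 of 10 were so in p53-/- cells. Of all genes that reached 1 FPKM in at least 1 library, 11.4% and 0.370% were so. The genotypes also differed in markers of other cell types, given below beside the genotype comparison.

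A difference here is the difference of log2(FPKM + 1), which understates changes of low genes, and a gene is counted as higher or lower at 1 or more in size. Each deposited FPKM comes with confidence bounds, which cover counting and read assignment only. Of the 36 values of the 9 genes, 31 lay within their own bounds. Top2a was above its upper bound in all 4 libraries and Tdp2 in treated p53-/- cells, so no bounds are given there.

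Top2a was the most abundant of the 9 genes in every library. It stood at 167 FPKM without and 102 FPKM with Adriamycin in p53+/+ cells, and at 188 and 195 FPKM in p53-/- cells. The treated p53+/+ library was thus the low one, and the other 3 lay close together. The level was 1.64-fold lower after Adriamycin in p53+/+ cells (difference -0.71) and 1.04-fold higher in p53-/- cells (difference 0.05, which turned to -0.04 under median ratio scaling and to -0.01 under upper quartile scaling of the libraries). Top2a exceeded 97.6% of the 12985 genes past the filter of 1 FPKM in untreated p53+/+ cells and 95.8% in treated ones.

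Top2b showed another pattern, in which genotype and not treatment separated the libraries. Its level was 9.85 FPKM (bounds 9.10 to 10.4) without and 9.83 FPKM (9.09 to 10.5) with Adriamycin in p53+/+ cells. The p53-/- values were 4.85 FPKM (4.36 to 5.33) without and 5.50 FPKM (4.98 to 6.02) with the drug. The bounds overlapped within each genotype and lay apart between genotypes, with differences of -0.89 untreated and -0.74 treated for p53-/- minus p53+/+. Top2a made up 94.4% of the summed topoisomerase II FPKM in untreated p53+/+ cells, 91.2% in treated p53+/+ cells, and 97.5% and 97.3% in untreated and treated p53-/- cells. The ratio of Top2a to Top2b was 17.0 and 10.4 in p53+/+ cells and 38.8 and 35.5 in p53-/- cells.

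The 300 bases around the Top2a and Top2b starts, 250 before and 50 after, are shown because the 2 genes encode enzymes of 1 family and yet differed in their pattern across these libraries. The sequences are RefSeq's for GRCm38.p6, a later build than the mm9 of the deposited tables, written 5′ to 3′ on the gene's strand. Capitals mark matches on either strand to the CCAAT box (CCAAT, or ATTGG on the other strand), the GC box (GGGCGG or CCGCCC), the TATA box (TATAAA or TTTATA), the CHR element (TTTGAA or TTCAAA) and its variant TTTAAA, and the p53 half-site. The Top2a window lies on the minus strand at chr11:99024140-99024439 and the Top2b window on the plus strand at chr14:16364956-16365255.
Top2a: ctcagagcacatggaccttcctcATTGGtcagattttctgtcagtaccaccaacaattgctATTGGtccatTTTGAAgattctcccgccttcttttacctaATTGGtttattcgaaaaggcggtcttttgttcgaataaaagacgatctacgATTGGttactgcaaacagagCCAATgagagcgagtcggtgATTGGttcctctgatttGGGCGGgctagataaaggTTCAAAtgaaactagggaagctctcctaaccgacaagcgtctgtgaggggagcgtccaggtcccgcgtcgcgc
Top2b: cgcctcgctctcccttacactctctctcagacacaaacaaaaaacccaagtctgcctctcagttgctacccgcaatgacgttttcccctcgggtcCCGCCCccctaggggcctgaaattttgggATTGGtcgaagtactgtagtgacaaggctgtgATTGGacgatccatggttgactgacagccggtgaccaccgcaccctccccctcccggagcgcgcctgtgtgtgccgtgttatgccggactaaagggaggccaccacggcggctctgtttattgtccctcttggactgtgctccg
The Top2a window held 6 CCAAT boxes, at positions -227, -189, -149, -98, -78 and -58 from the start, 2 CHR elements at -179 and -23, and 1 GC box at -41. The Top2b window held 2 CCAAT boxes, at -126 and -94, and 1 GC box at -155, with no match to a CHR element. Among all 32851 RefSeq windows of this length, 37.4% held a CCAAT box, 11.7% held 2 or more and 0.0791% held 6 or more. A CHR element was held by 17.9%, 2 or more by 2.31%, and a GC box by 35.7%. These matches describe letters only, and no binding was measured.

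Top1 was higher in the untreated p53+/+ library than in the other 3. It stood at 37.0 FPKM (34.2 to 37.3) there, against 25.9 FPKM (23.9 to 26.6) in treated p53+/+ cells. The p53-/- values were 24.7 FPKM (22.7 to 25.6) without and 25.3 FPKM (23.1 to 26.1) with the drug. The bounds of the latter 3 libraries overlapped, and those of the untreated p53+/+ library lay above them all. The p53+/+ response was -0.50, and the p53-/- response was 0.03, a value that turned to -0.06 under median ratio scaling and to -0.03 under upper quartile scaling.

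Of the other topoisomerase genes and their partners, 7 of 8 passed the filter. In p53+/+ cells 1 of the 7 was higher after Adriamycin and 0 were lower, beside 11.4% and 2.79% of all genes. The median difference was 0.19 beside 0.05 for all genes. The higher gene was Top1mt, the mitochondrial type I enzyme, at 4.92 and 14.3 FPKM. Top3b, a type IA enzyme, stood at 39.1 and 73.8 FPKM (difference 0.90). Blm, the helicase that works with Top3a, was at 26.8 and 18.4 FPKM (difference -0.52), and its complex partner Rmi1 at 9.57 and 6.72 FPKM (difference -0.45). In cells labelled p53-/-, 0 of the 7 passed the step in either direction, beside 0.839% of all genes, and their median was 0.20. Between treated genotypes Top3b alone of the 7 was lower in p53-/- cells, at 29.3 against 73.8 FPKM, beside 13.0% of all genes.

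Top2a is transcribed in proliferating cells, so 12 proliferation and G2/M genes were set beside it. In p53+/+ cells 11 of the 12 were below 0 after Adriamycin, 2 of them by at least 1, beside 2.79% of all genes. Their median was -0.71, beside -0.71 for Top2a itself and 0.05 for all genes. The mitotic kinases Plk1 and Aurka were the 2 lower genes, at -1.73 and -1.14, and Ccnb1 and Cdk1, cyclin B1 and its kinase, both stood at -0.95. In p53-/- cells 8 of the 12 were below 0, and Plk1 and Aurka were again lower (-1.56 and -1.04), beside 0.470% of all genes. The median of the 12 was -0.28, beside 0.07 for all genes. The median of the list turned to 0.03 when only transcripts with all 4 FPKM inside their bounds were used. The 12 values of the p53-/- response ran from -1.56 for Plk1 to 0.25 for the condensin gene Smc4, and Top2a, at 0.05, lay within that range.

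Tdp2 and Tdp1 varied less than the pumps. Tdp2 stood at 26.5 FPKM (22.9 to 26.6) in untreated p53+/+ cells, 19.6 FPKM (16.8 to 20.1) in treated p53+/+ cells, 27.3 FPKM (23.5 to 27.8) in untreated p53-/- cells and 30.9 FPKM in treated p53-/- cells. The treated p53+/+ library was the low one, as for Top2a, and its bounds lay below those of the untreated libraries. The p53+/+ response was -0.42 and the p53-/- response 0.17. Treated p53-/- cells exceeded treated p53+/+ cells 1.58-fold (difference 0.63).

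Tdp1 had the narrowest span of the 9 genes, 0.29 on the log2(FPKM + 1) scale. It stood at 22.1 FPKM (19.1 to 22.4) and 18.0 FPKM (15.5 to 18.9) in untreated and treated p53+/+ cells, and at 19.6 FPKM (16.8 to 20.4) and 18.0 FPKM (15.3 to 18.6) in p53-/- cells. Its bounds lay apart only within p53+/+ cells, by a narrow margin, and overlapped in the other 3 direct comparisons. The ratio of Tdp2 to Tdp1 was 1.20 and 1.09 in p53+/+ cells and 1.39 and 1.71 in p53-/- cells.

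A list of 22 genes that act on trapped complexes and on the resulting breaks was examined as the setting of Tdp1 and Tdp2, of which 21 were named and passed the filter. In p53+/+ cells 2 of the 21 were higher and 0 lower, beside 11.4% and 2.79% of all genes. The median was 0.13, which turned to -0.03 after quantile normalization. The 2 higher genes were Nhej1, the end-joining factor XLF, at 4.65 and 15.4 FPKM, and Xrcc1, the scaffold of single-strand break repair, at 32.3 and 70.2 FPKM. Mus81, a structure-specific nuclease, stood at 0.66, and Sprtn, a protease that digests DNA-protein crosslinks, at 0.61. Among p53-/- libraries 0 of the 21 passed the step, beside 0.839% of all genes, and their median was 0.14. Between treated genotypes 4 were lower in p53-/- cells, namely Nhej1, Xrcc1, Mus81 and the nuclease subunit gene Ercc4. The ligase gene Lig3 was higher (13.2 against 31.4 FPKM). Of all genes 13.0% were lower and 6.68% higher in that comparison.

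Abcb1b had the widest span of the 9 genes. It stood at 7.40 FPKM (6.67 to 7.95) in untreated p53+/+ cells and 42.5 FPKM (39.8 to 43.0) in treated p53+/+ cells. The p53-/- values were 4.38 FPKM (3.85 to 4.89) without and 5.01 FPKM (4.42 to 5.55) with the drug. The treated p53+/+ library stood far above the other 3, and the p53-/- bounds overlapped each other and lay below those of untreated p53+/+ cells. The p53+/+ level was 5.75-fold higher after Adriamycin, a difference of 2.37 that exceeded those of 98.4% of genes, and the p53-/- level 1.14-fold higher, a difference of 0.16. Mean read coverage of the transcript went from 37.2 to 213 in p53+/+ cells and from 16.9 to 21.5 in p53-/- cells.

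Abcb1a, its neighbour on chromosome 5, also stood higher in treated p53+/+ cells, by a smaller amount. It stood at 6.55 FPKM (5.94 to 7.10) without and 10.2 FPKM (9.36 to 10.9) with Adriamycin in p53+/+ cells. The p53-/- values were 3.28 FPKM (2.87 to 3.68) without and 3.21 FPKM (2.81 to 3.60) with the drug. Bounds lay apart in each comparison except the p53-/- response. The p53+/+ difference was 0.57, short of the step, and the p53-/- difference -0.03. Abcb1b made up 53.1% of the summed pair in untreated p53+/+ cells, 80.7% in treated p53+/+ cells, and 57.2% and 61.0% in untreated and treated p53-/- cells.

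The values of this pair carry an uncertainty that the other 7 genes do not share to the same degree. The transcripts of Abcb1a and Abcb1b were identical at 87.0% of 4294 aligned bases, with a longest identical run of 338 bases. Of all 50-base words in Abcb1b, 18.0% also occurred in Abcb1a, and 15.6% of those in Abcb1a occurred in Abcb1b. Reads from such stretches cannot be assigned with certainty, and how much of the Abcb1a difference comes from reads of Abcb1b was not tested. Among the other 7 genes, 6 had no 50-base word in another gene's transcript, and Top2a had 0.174% of its words in 1 other gene. Words were counted from the 5′ end of the GENCODE M21 transcript, over the length of the deposited model. This left out the rest of longer transcripts, such as that of Abcg2 (2491 of 5717 bases used) and Top2b (5633 of 10335). Top2a and Top2b were identical at 77.1% of aligned bases, with a longest run of 23.

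The Abcb1b window is shown because this gene had the largest difference of the 9 after Adriamycin in p53+/+ cells. It lies on the plus strand of GRCm38.p6 at chr5:8797897-8798196, with the same marking of matches as above.
Abcb1b: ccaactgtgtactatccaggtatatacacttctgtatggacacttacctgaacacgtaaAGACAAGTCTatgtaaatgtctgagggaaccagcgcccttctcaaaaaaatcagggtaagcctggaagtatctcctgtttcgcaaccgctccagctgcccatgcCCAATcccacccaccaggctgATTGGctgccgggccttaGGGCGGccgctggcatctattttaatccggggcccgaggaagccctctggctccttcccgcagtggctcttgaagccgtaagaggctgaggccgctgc
It held 1 p53 half-site, the decamer AGACAAGTCT at position -191, whose letters match on each strand. It also held 2 CCAAT boxes at -87 and -66 and 1 GC box at -48. A p53 half-site occurred in 8.36% of all RefSeq windows of this length and in none of the windows at the measured starts of Top1, Top2a, Top2b, Tdp1 and Abcg2. At that share, no match in so few windows is what the background gives as well. RefSeq windows were found for 7 of the 9 genes, not for Tdp2 and Abcc1. The Abcb1a window belongs to a start 92986 bases from that of the measured transcript in GENCODE M21 and is not shown. The match is a description of letters and not evidence of binding.

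Abcg2 went the other way from Abcb1b in p53+/+ cells. It stood at 23.5 FPKM (20.7 to 23.8) without and 13.0 FPKM (11.4 to 13.8) with Adriamycin in p53+/+ cells. The p53-/- values were 20.4 FPKM (17.9 to 21.2) without and 23.7 FPKM (20.8 to 24.2) with the drug. Treated p53+/+ cells formed the low library, and the bounds of the other 3 overlapped. The p53+/+ difference was -0.81 and the p53-/- difference 0.20.

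Abcc1 was separated by genotype. It stood at 14.8 FPKM (13.9 to 15.4) without and 11.5 FPKM (10.7 to 12.1) with Adriamycin in p53+/+ cells, and at 21.4 FPKM (20.1 to 22.4) and 19.8 FPKM (18.5 to 20.6) in p53-/- cells. Each p53-/- library lay above each p53+/+ library, with bounds apart, by 0.50 untreated and 0.73 treated. The responses to Adriamycin were -0.34 in p53+/+ and -0.11 in p53-/- cells, and only the former had bounds that lay apart.

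The make-up of the pump transcripts stood apart in treated p53+/+ cells. FPKM summed over the 4 pump genes was 52.3 in untreated and 77.2 in treated p53+/+ cells, and 49.5 and 51.7 in p53-/- cells. Abcb1b was 14.1% of that sum in untreated p53+/+ cells and 55.1% in treated p53+/+ cells, against 8.85% and 9.69% in p53-/- cells. Abcg2 went from 45.0% to 16.8% of it in p53+/+ cells and from 41.2% to 45.8% in p53-/- cells. These are transcript shares per length and say nothing of pump protein or drug export, which were not measured.

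**Figure D1:**
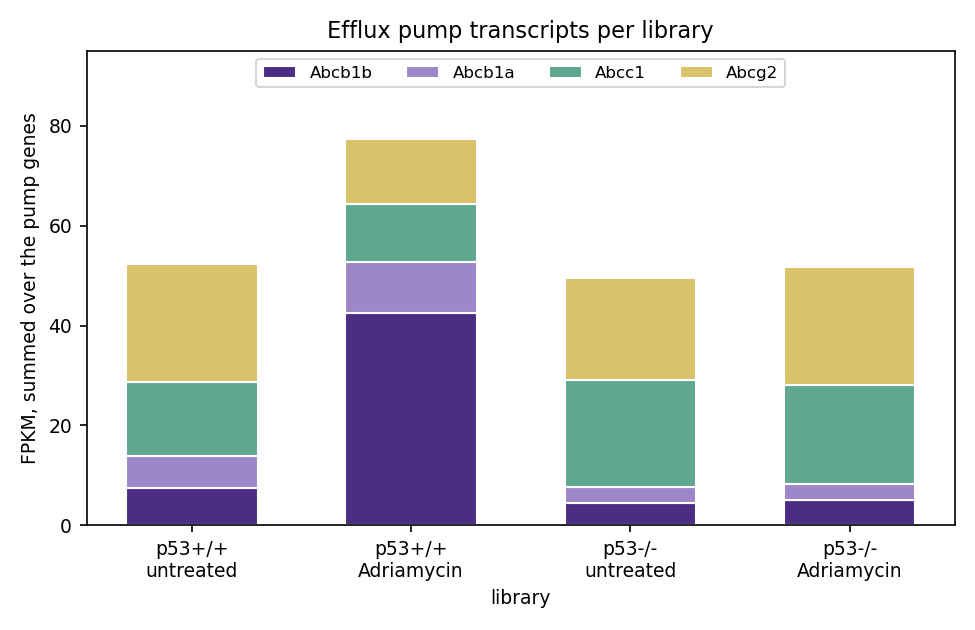
Stacked bars give the FPKM of Abcb1b, Abcb1a, Abcc1 and Abcg2 in each of the 4 libraries, from 0 on a linear axis. The bar of treated p53+/+ cells reaches 77.2 FPKM, of which 42.5 FPKM is Abcb1b, while the other 3 bars end between 49.5 and 52.3 FPKM.

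Of 21 other transporters of the ABC families B, C and G, 11 passed the filter. In p53+/+ cells 1 of the 11 was higher and 0 lower, beside 11.4% and 2.79% of all genes. The median was 0.33, which became -0.00 after quantile normalization. Abcg1, a cholesterol exporter, was the higher gene at 3.63 and 12.9 FPKM. Abcb9, a lysosomal peptide transporter, went from 0.116 to 1.23 FPKM and stayed just short of the step, while the drug and organic anion transporters Abcc10 and Abcc5 stood at 0.74 and 0.68. The p53-/- response had 0 of the 11 past the step, beside 0.839% of all genes, and the median of the 11 was 0.11. Between treated genotypes Abcg1 alone was lower in p53-/- cells (2.65 against 12.9 FPKM), beside 13.0% of all genes. Abcb4, the phospholipid transporter next of kin to the Abcb1 pair, was below 1 FPKM in all 4 libraries and did not pass the filter. It stood at 0.0516 and 0.277 FPKM in p53+/+ cells (difference 0.28). In p53-/- cells it stood at 0.0623 and 0.818 FPKM (difference 0.77).

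Of 10 further genes linked to anthracycline transport or reduction, 8 passed the filter. In p53+/+ cells 2 of the 8 were higher and 1 lower, beside 11.4% and 2.79% of all genes. Mvp, the major vault protein associated with drug resistance, stood at 15.1 and 68.7 FPKM in p53+/+ and at 16.3 and 16.0 FPKM in p53-/- cells. Cbr3, a carbonyl reductase, stood at 8.60 and 21.1 FPKM in p53+/+ and at 9.75 and 13.0 FPKM in p53-/- cells. Cbr1, the main reductase of doxorubicin, stayed between 26.8 and 32.0 FPKM in the 4 libraries. The aldose reductase gene Akr1b3 went from 6.24 to 0.773 FPKM in p53+/+ cells, but 86.2% of its 50-base words occur in other genes' transcripts and the value is uncertain. Mvp shares 10.8% of its words with 1 other gene, and the quinone reductase gene Nqo1 stood at 0.77 in p53+/+ and 0.54 in p53-/- cells. The median of the 8 was 0.09 in p53+/+ cells, which turned to -0.02 under median ratio scaling, to -0.01 under upper quartile scaling and to -0.20 over transcripts within their bounds. In p53-/- cells 0 of the 8 passed the step, beside 0.839% of all genes. Between treated genotypes Mvp was lower and Akr1b3 higher in p53-/- cells, beside 13.0% and 6.68% of all genes.

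**Figure D2:**
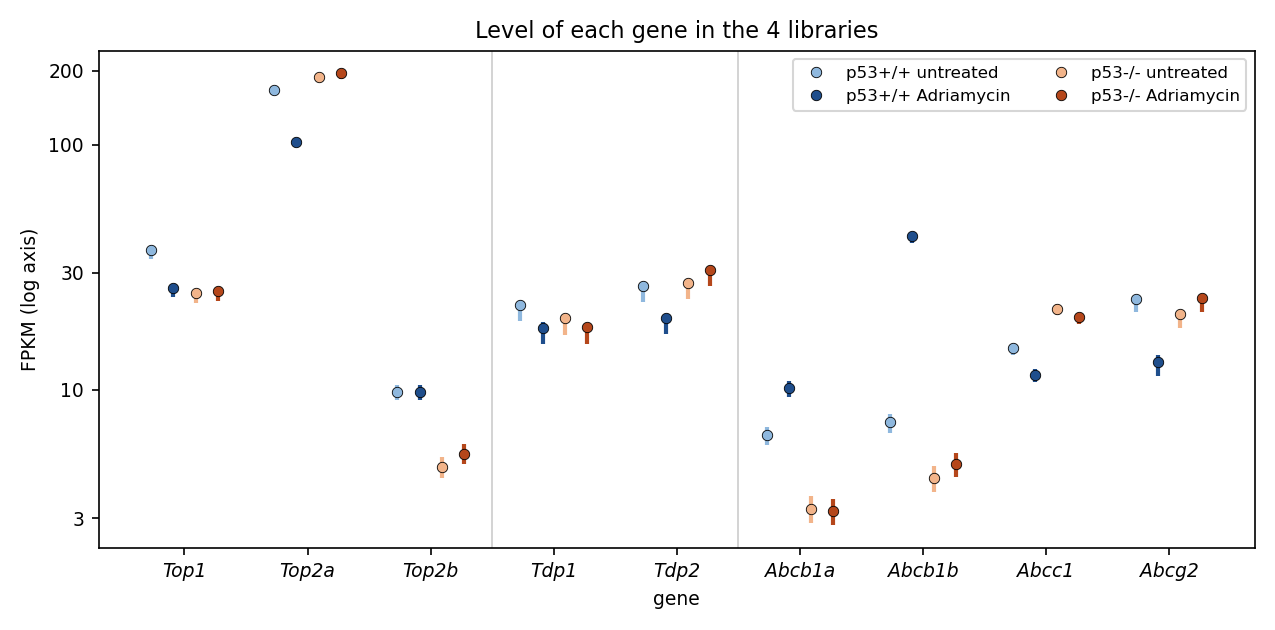
Points give the FPKM of each of the 9 genes in the 4 libraries on a log axis, and vertical lines give the deposited confidence bounds. Abcb1b in treated p53+/+ cells, at 42.5 FPKM, stands clear of its other values between 4.38 and 7.40 FPKM, and the Top2a points lie above their bounds.

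Within each library the genes kept a similar order, with Top2a first and the Abcb1 pair and Top2b last, except for Abcb1b in treated p53+/+ cells. In untreated p53+/+ cells Abcb1b and Abcb1a were the lowest of the 9, with overlapping bounds. In treated p53+/+ cells Abcb1b was second to Top2a, with bounds above those of Top1, while Abcg2, Abcc1, Abcb1a and Top2b overlapped from each to the next. In both p53-/- libraries Tdp2 was second, and Top2b and Abcb1b overlapped above Abcb1a, which was lowest. In untreated p53-/- cells the bounds of Tdp2 overlapped those of Top1, the next gene.

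Counted over the 9 genes, the p53+/+ response had 1 higher (Abcb1b) and 0 lower. Of all 12985 genes 11.4% were higher and 2.79% lower, 14.2% together, so the share of the 9 was near the background. Higher genes made up 80.3% of all those counted, and 65.4% after quantile normalization. The median of the 9 was -0.34 beside 0.05 for all genes, with 7 of the 9 below 0. Bounds lay apart for 8 of the 9, Top2b being the exception, and for 59.6% of the 9988 genes past the filter that, like the 9, have 1 transcript. In the p53-/- response 0 of the 9 were counted with a median of 0.05 beside 0.07 for all genes. Bounds lay apart for 0 of the 9 and for 18.5% of those 9988 genes. In that response 0.370% of all genes were higher and 0.470% lower, 0.839% together, so a count of 0 is what the background gives as well.

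**Figure D3:**
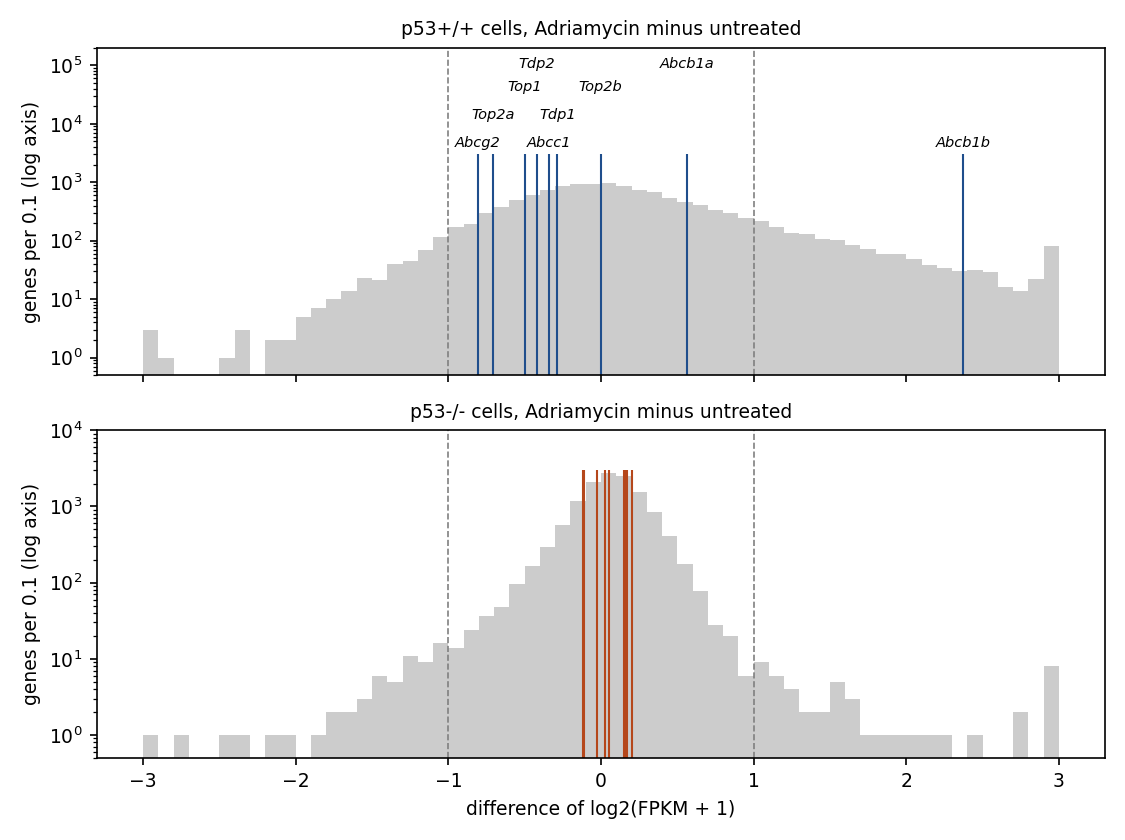
Grey histograms give the differences of all 12985 genes after Adriamycin in p53+/+ (upper) and p53-/- cells (lower), on a log count axis, with values beyond 3 in size in the end bins, dashed lines at 1 and -1, and coloured lines for the 9 genes. Abcb1b at 2.37 is past the upper dashed line in p53+/+ cells, and all 9 lines lie between -0.12 and 0.20 in p53-/- cells.

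The p53+/+ response minus the p53-/- response passed the step for Abcb1b at 2.22 and for Abcg2 at -1.01. Of all genes 10.4% were past it upward and 3.29% downward, 13.7% together, and the upward genes were 76.0% of those counted, or 65.5% after quantile normalization. The value of Abcg2 became -0.84 with a pseudocount of 5 FPKM and was then no longer counted. Top2a stood at -0.76, Tdp2 at -0.59, Top1 at -0.53 and Abcb1a at 0.59, while Abcc1, Tdp1 and Top2b stood at -0.23, -0.17 and -0.15. No test of these differences is possible with 1 library a group.

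**Figure D4:**
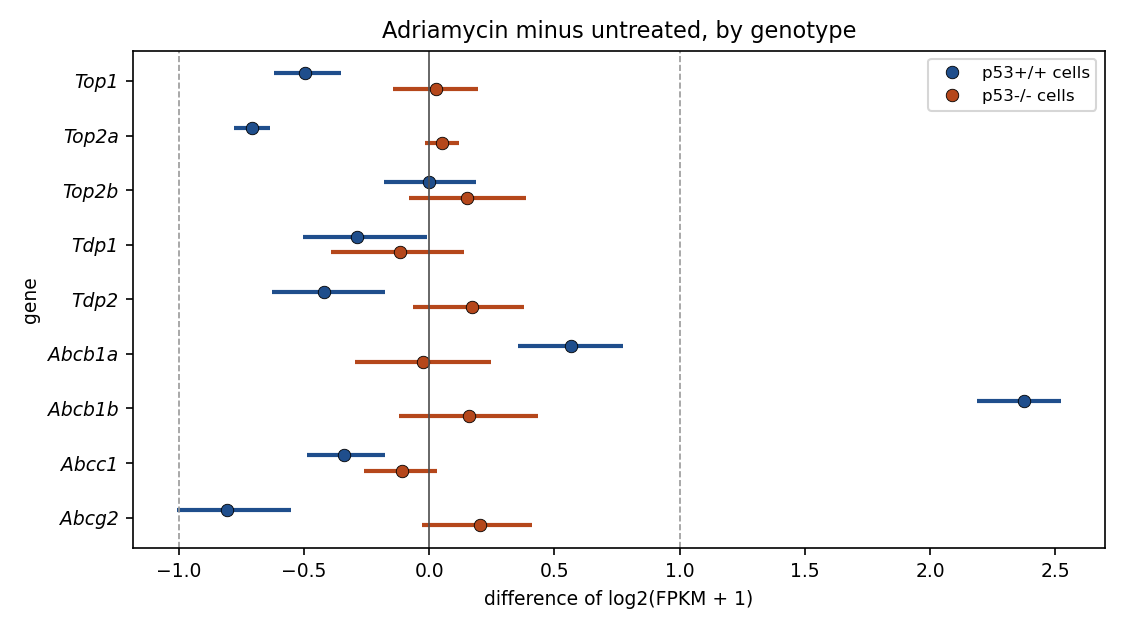
Points give each gene's difference after Adriamycin in p53+/+ and p53-/- cells, and horizontal lines the range that the confidence bounds of the 2 libraries allow, widened to the FPKM itself where that lies outside. The p53-/- lines all cross 0, and in p53+/+ cells the lines of 8 genes do not, beside 18.5% and 59.6% of all genes with 1 transcript whose bounds lie apart in these responses.

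Between the untreated genotypes 0 of the 9 genes passed the step, where 3.47% of all genes were higher and 3.13% lower, 6.60% together. Top2b at -0.89, Abcb1a at -0.82, Abcb1b at -0.64 and Top1 at -0.56 were below 0 in p53-/- cells with bounds apart, and Abcc1 at 0.50 was above. Bounds lay apart for 6 of the 9 here, with Top2a at 0.17, and for 50.6% of the genes with 1 transcript. Top2b was counted as lower, at -1.01, with a pseudocount of 0.1 FPKM. Between treated genotypes 2 of the 9 were lower in p53-/- cells, Abcb1b at -2.86 and Abcb1a at -1.41, where 13.0% of all genes were lower and 6.68% higher, 19.7% together. Higher genes made up 33.9% of those counted there, and 44.1% after quantile normalization. Abcb1a stood at -0.89 with a pseudocount of 5 FPKM. Top2a at 0.92 was just short of the step and passed it, at 1.01, under upper quartile scaling. Bounds between treated genotypes lay apart for 7 of the 9 and for 65.7% of the genes with 1 transcript. The treated and untreated comparisons had the same sign for Top1, Top2a, Top2b, Tdp2, Abcc1 and the Abcb1 pair. Tdp1 and Abcg2 changed sign, but the bounds of Tdp1 overlapped in both comparisons and those of Abcg2 in untreated cells. The bounds of Tdp2 overlapped in untreated cells as well. By its bounds, Top1 differed between genotypes only in untreated cells.

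With a smaller step of 1.5-fold, 1 of the 9 genes was higher and 2 lower in the p53+/+ response, where 21.7% of all genes were higher and 11.3% lower, 33.0% together. Top2a and Abcg2 were the lower genes. The p53-/- response still had 0 of the 9, with 1.56% of all genes higher and 1.49% lower, 3.05% together. Top2b, Abcb1a and Abcb1b were lower between untreated genotypes, where 10.3% of all genes were higher and 11.0% lower, 21.2% together. Between treated genotypes Top2a, Tdp2, Abcc1 and Abcg2 were higher and Top2b, Abcb1a and Abcb1b lower, where 17.7% of all genes were higher and 23.4% lower, 41.1% together. In the response difference Abcb1a and Abcb1b were above the step and Top2a, Tdp2 and Abcg2 below it, where 19.8% of all genes were above and 13.8% below, 33.6% together.

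Markers of other cell types differed between the same libraries. Of 15 fibroblast markers 14 passed the filter and 12 of these were higher in untreated p53-/- cells, as were 12 in treated ones, and 0 were lower. The 15 together summed to 115 and 100 FPKM in p53+/+ and to 634 and 557 FPKM in p53-/- cells. Col3a1, Dcn, Lum and Postn were at 0 in both p53+/+ libraries. Of 10 primitive endoderm markers 9 passed the filter and 6 were lower in each comparison. The sums were 144 and 152 FPKM against 65.4 and 63.8 FPKM, and Foxa2 was at 0 in untreated p53-/- cells. For the 2-cell-like state, 7 of 10 markers passed the filter, and p53-/- cells had lower values for 5 untreated and 7 treated, with sums of 391 and 604 FPKM against 60.2 and 61.7 FPKM, and Tcstv1 and Tcstv3 were at 0 in all 4 libraries. Of 6 trophoblast markers past the filter, 3 were higher in each comparison, with sums of 38.9 and 47.5 FPKM against 79.4 and 75.1 FPKM. Of 8 blood and endothelial markers 4 passed the filter, and 2 (Laptm5 and Srgn) were lower in p53-/- cells in each comparison. The sums were 83.6 and 111 FPKM against 38.0 and 42.8 FPKM, and Ptprc was at 0 in all but the untreated p53-/- library.

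The 10 pluripotency markers summed to 4179 FPKM without and 2873 FPKM with Adriamycin in p53+/+ cells, where 3 were lower, beside 2.79% of all genes. In p53-/- cells they summed to 2993 and 2648 FPKM, and 0 were lower, beside 0.470% of all genes. The part of these markers in the values of the 9 genes was not tested. In such bulk libraries, fewer cells of a type and less RNA per cell cannot be told apart.

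**Figure D5:**
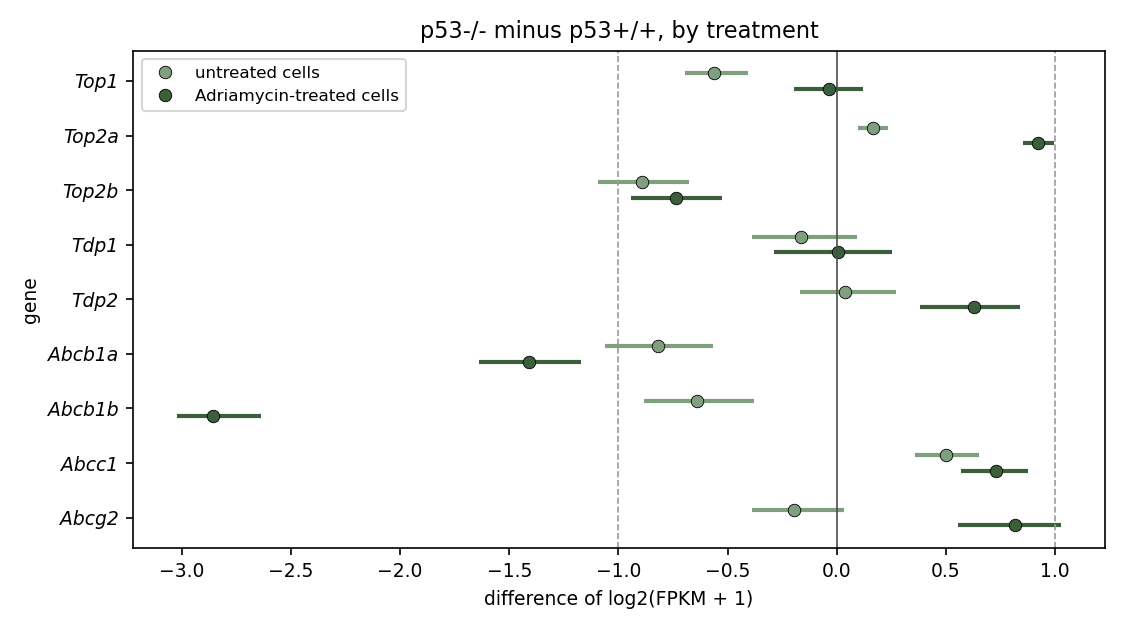
Points give p53-/- minus p53+/+ for each gene in untreated and in Adriamycin-treated cells, with lines for the range that the confidence bounds allow, widened to the FPKM itself where that lies outside. Abcb1b stands at -0.64 in untreated and -2.86 in treated cells, and Top2b, at -0.89 and -0.74, stays below 0 in both.

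Only Abcb1a and Abcb1b spanned at least 1 on the log2(FPKM + 1) scale over the 4 libraries, and the genes nearest to them in pattern were sought among 9133 genes reaching 5 FPKM in at least 1 library, leaving out short RNAs and gene models that carry only a clone or model number as their name. The measure was the distance between log2(FPKM + 1) profiles after each gene's own mean was removed, over 4 libraries, where a close match is a weak description. Nearest to Abcb1b were Pidd1 at a distance of 0.02, Ercc5 at 0.06 and Fam214a at 0.06. Pidd1 stood at 9.61 and 54.0 FPKM in p53+/+ and at 5.82 and 6.73 FPKM in p53-/- cells. Nearest to Abcb1a were Zc3h4 at 0.04, Mreg at 0.06 and Spock2 at 0.07.

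In the deposited mm9 coordinates, counted from 1, Top1 spans chromosome 2 from 160471633 to 160548499, Top2a chromosome 11 from 98854261 to 98885503 and Top2b chromosome 14 from 17197720 to 17263301. Tdp1 spans chromosome 12 from 101122725 to 101193426 and Tdp2 chromosome 13 from 24923528 to 24934022. Abcb1a and Abcb1b lie on chromosome 5, from 8660092 to 8748570 and from 8798147 to 8866314. Abcc1 spans chromosome 16 from 14361651 to 14474971 and Abcg2 chromosome 6 from 58546666 to 58642445. The transcript models, over which each FPKM was taken whole, measure from 1977 bases (Tdp2) to 5935 bases (Abcc1). Mean read coverage of the 9 genes ranged from 13.5 for Abcb1a in treated p53-/- cells to 927 for Top2a in untreated p53+/+ cells.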

How the data were processed

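The authors deposited 1 table per library with FPKM, confidence bounds in FPKM, read coverage (a depth signal) and transcript length for 30769 RefSeq transcripts, in the layout of a Cufflinks tracking table per the file headers. The submitters' processing notes list, for build mm9 and without role or order, TopHat2 2.0.5, TopHat, CASAVA 1.8.1 and Cufflinks, whose version and annotation are not given in the sources used here. RNA had a poly(A) tail, and an exome enrichment kit is named, per the labels' protocols, and the effect of capture on these values was not tested. Names came from RefSeq (29700 rows) and GENCODE M21 (178 rows), both of GRCm38, and 891 rows stayed unnamed. After 744 short RNA rows were left out, FPKM was summed per gene. Genes with 1 FPKM or more in at least 1 library entered 5 comparisons with a pseudocount of 1 FPKM. No test was possible. Named genes of a list are up to 4 with the largest p53+/+ difference, plus those past the step in a comparison described. Abcb4, Cbr1 and Smc4 were chosen after their values were seen. The genes and lists were chosen with earlier results of these data known. Calculations used Python 3.11.15, pandas 2.3.3, numpy 2.4.6 and matplotlib 3.10.9 and were tested on simulated data. Alternatives covered pseudocount, filter, transcript choice, scaling, step and bounds.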

Additional observations from a re-analysis of the deposited data

Results flagged for a closer look

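For Abcg2, Top2a, Tdp2, Top1, Abcb1a and Top2b the difference after Adriamycin had opposite signs in p53+/+ and p53-/- cells. The difference between the genotypes was not tested. The share of all genes with opposite signs was not counted, so this is not shown to be particular to these genes. The p53+/+ minus p53-/- response was -1.01 for Abcg2, -0.76 for Top2a, -0.59 for Tdp2, -0.53 for Top1, 0.59 for Abcb1a and -0.15 for Top2b. The p53-/- side of each was small, from -0.03 for Abcb1a to 0.20 for Abcg2, with overlapping bounds, and its sign turned under some scalings for Top1 and Top2a. For Top2b the p53+/+ side was -0.00 and its bounds overlapped as well.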

How the results depend on the processing

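Of 45 differences (9 genes in 5 comparisons), 42 kept their sign under each of up to 10 alternatives. The exceptions were Top1 and Top2a in the p53-/- response and Top1 between treated genotypes (-0.05 to 0.04). The Abcb1b response in p53+/+ cells ranged from 1.94 to 2.51. As reported, all genes counted were 1840 in the p53+/+ response, 109 in the p53-/- response, 857 and 2558 between untreated and treated genotypes, and 1782 in the response difference. With a pseudocount of 0.1 FPKM, all genes counted were 2763 in the p53+/+ response, 281 in the p53-/- response and 1724 between untreated genotypes, where 1 of the 9 was lower. With 5 FPKM they were 779, 51 and 253, with 1126 between treated genotypes, where 1 of the 9 was lower, and 769 in the response difference, where 0 were. With a 1.5-fold step they were 4285, 396, 2753, 5339 and 4367 in the order of comparisons above. Of the 9 genes, 2 were then lower in the p53+/+ response (Top2a and Abcg2), 3 lower between untreated genotypes, 4 higher between treated genotypes, and 2 higher and 3 lower in the response difference. The p53-/- count was 167 with the most abundant transcript per gene and 65 over transcripts within their own bounds, which dropped Top2a and Tdp2. Upper quartile scaling put 1 of the 9 higher between treated genotypes. Quantile normalization moved the median of all genes by -0.15 in the p53+/+ response and by 0.12 between treated genotypes. The causes of these shifts were not tested. No paired analysis was possible because each group has 1 library and the labels carry no replicate number. With 1 library a group, depth and bounds limit only counting error.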

Other observations

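Transcription factors known to act on topoisomerase or pump promoters were examined as a list. Of 16 such genes 15 passed the filter. In p53+/+ cells 2 of the 15 were higher and 0 lower, beside 11.4% and 2.79% of all genes. The median was -0.06, which turned to 0.09 without a filter. The higher genes were Foxo3, a forkhead factor, at 17.7 and 42.2 FPKM, and Nr1i2, which encodes the xenobiotic receptor PXR, with a difference of 1.15 from 0.125 FPKM in untreated cells. E2f1 stood at 0.90 and Mybl2, a factor of late cell cycle genes, at -0.79. In p53-/- cells 0 of the 15 passed the step, beside 0.839% of all genes. Their median was 0.06, which turned to -0.02 under median ratio scaling and to -0.03 after quantile normalization. Foxo3 was lower in untreated p53-/- than p53+/+ cells (5.32 against 17.7 FPKM), beside 3.13% of all genes. Foxo3, Nr1i2 and Nfyb were lower in treated p53-/- than p53+/+ cells, beside 13.0% of all genes. Nfyb, a subunit of the CCAAT-binding factor NF-Y, stood at 31.9 and 49.3 FPKM in p53+/+ and at 23.8 and 23.9 FPKM in p53-/- cells.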
